A study of Mus musculus with 12 samples.

Results

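The machinery that puts the histone variant H2A.Z into nucleosomes and takes it out again was described here through 32 listed genes, the subunits of the SRCAP, p400/TIP60 and INO80 complexes and the chaperone Anp32e. Members were found by matching the gene symbols of a deposited count table to this list. The match gave 32 of the 31057 gene IDs in the table, carrying 31 of the 32 symbols, because Srcap stands on 2 IDs and Mrgbp was not found under that symbol. Mrgbp is listed under the older symbol 1600027N09Rik (ENSMUSG00000027569) and is given beside the members, outside their counts. All 32 matched IDs passed the filter on low counts, as did 17201 genes of the table.

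RNA came from whole tibialis anterior, a muscle of the lower hind leg, of C57BL/6 mice aged 7 weeks, in 4 groups of 3. The dKO mice carry H2A-Z.1 flox/flox and H2A-Z.2 flox/flox alleles, that is, floxed copies of H2afz and H2afv, together with HSA Cre, a recombinase under the promoter of human skeletal actin. WT mice carry the same floxed alleles without Cre. The nerve of the left hind leg, the sciatic nerve, was cut 48 h before collection in both genotypes (denervated), and the opposite leg, which was not operated on, gave the innervated sample. The promoter of the Cre is active in muscle fibres, so the other cells of the muscle keep both genes. The design asks what loss of H2A.Z changes in resting muscle and in muscle that has lost its nerve. In bulk muscle, fewer cells of a type and less RNA per cell cannot be told apart.

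H2A.Z is laid down as a dimer with H2B by 2 related remodelling complexes, SRCAP and p400/TIP60, each built around an ATPase of the INO80 family (SRCAP or EP400) and sharing several subunits. The INO80 complex has another ATPase of this family and, in yeast, was reported to exchange H2A.Z for H2A, and ANP32E is a vertebrate chaperone that takes H2A.Z off nucleosomes. H2A.Z sits mainly in the nucleosomes around active promoters, and TIP60 also acetylates histones there. In muscle, cutting the motor nerve switches on genes for acetylcholine receptors and for protein breakdown and begins atrophy.

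The promoters of the 3 ATPases, of the chaperone and of Ruvbl1 are shown because these 5 genes mark the patterns below: 3 of them rose after denervation, and Srcap and Anp32e were not called in either genotype. Each line holds the 250 bases before a gene start in RefSeq (GRCm38.p6), read along the strand of the gene, with GC boxes (GGGCGG or its reverse complement CCGCCC) and CCAAT boxes (CCAAT or ATTGG) in capitals. The windows are chr7:127511733-127511982 on the plus strand for Srcap, chr5:110770718-110770967 on the minus strand for Ep400, chr2:119477688-119477937 on the minus strand for Ino80, chr6:88465159-88465408 on the plus strand for Ruvbl1 and chr3:95929007-95929256 on the plus strand for Anp32e.
Srcap: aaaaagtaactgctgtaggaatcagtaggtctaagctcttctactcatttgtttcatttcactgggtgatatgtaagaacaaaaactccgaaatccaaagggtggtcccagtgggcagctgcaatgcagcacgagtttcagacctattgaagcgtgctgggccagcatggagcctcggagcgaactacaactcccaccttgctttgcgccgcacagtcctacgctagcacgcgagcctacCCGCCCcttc
Ep400: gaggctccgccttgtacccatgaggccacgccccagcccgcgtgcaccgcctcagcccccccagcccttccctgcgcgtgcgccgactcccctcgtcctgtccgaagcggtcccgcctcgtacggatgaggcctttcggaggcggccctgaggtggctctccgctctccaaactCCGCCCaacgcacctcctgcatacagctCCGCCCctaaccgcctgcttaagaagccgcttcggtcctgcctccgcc
Ino80: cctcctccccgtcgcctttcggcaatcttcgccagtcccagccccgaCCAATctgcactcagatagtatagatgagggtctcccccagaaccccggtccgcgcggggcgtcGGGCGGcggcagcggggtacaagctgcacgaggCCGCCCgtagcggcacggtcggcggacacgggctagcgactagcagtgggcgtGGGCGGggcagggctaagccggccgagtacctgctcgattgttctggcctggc
Ruvbl1: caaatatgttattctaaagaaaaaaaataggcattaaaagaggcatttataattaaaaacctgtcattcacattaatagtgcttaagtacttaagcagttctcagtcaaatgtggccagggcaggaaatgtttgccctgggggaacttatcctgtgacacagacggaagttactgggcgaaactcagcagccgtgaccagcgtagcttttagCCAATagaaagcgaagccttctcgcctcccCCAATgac
Anp32e: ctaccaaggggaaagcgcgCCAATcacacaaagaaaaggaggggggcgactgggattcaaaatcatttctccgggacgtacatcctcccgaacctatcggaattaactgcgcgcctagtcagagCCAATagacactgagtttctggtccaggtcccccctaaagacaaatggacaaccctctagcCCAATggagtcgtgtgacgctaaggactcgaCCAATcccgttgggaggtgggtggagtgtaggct

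Of the 32 listed symbols, 26 had a promoter in the RefSeq table, and Epc1, Ino80c, Actr5, Brd8, Vps72 and Actr8 had none there. A GC box stood in 18 of 26 (69.2%), against 35.4% of 27025 genes in windows of the same length, and a CCAAT box in 13 of 26 (50%), against 37.5% of genes. The muscle E-box CAGCTG was found in 5 of 26 (19.2%), against 14.7% of genes. The MEF2 core TATTTNTA was found in Tfpt (3.8%, against 6.3% of genes). The ETS motif CCGGAAGT was found in Actr6, Dmap1 and Ino80b (11.5%, against 3.2% of genes), the NRF1 motif GCGCATGC in Yeats4 (3.8%, against 2.6%) and the YY1 core ATGGCGNC in Ino80e (3.8%, against 2.8%). Each motif was searched on both strands, in any of a gene's listed starts. The median count of CpG dinucleotides was 17.5 in the members' windows and 6.0 over all windows. These matches describe the letters and show no binding. The printed windows of Ep400 and Ino80, which rose, and of Srcap, which was not called, all hold a GC box. Anp32e holds 4 CCAAT boxes and Ruvbl1 holds 2.

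Libraries held 55668606 to 87753152 counts. Levels are CPM, counts scaled to library size and by TMM, listed for replicates 1, 2 and 3. Changes are log2 ratios with the standard error (SE) of edgeR's quasi-likelihood fit over 12 libraries, with n = 3 per group. Called, rose and fell mean an adjusted p under 0.05 by that test, with Benjamini-Hochberg adjustment over 17201 genes. The deletion showed in H2afv, with 5.67 ± 0.53 CPM in dKO and 22.1 ± 3.17 CPM in WT innervated legs (SD, n = 3), a change of −1.96 (SE 0.12, adjusted p = 8.89e-06), and a change of −2.05 in denervated legs. H2afz was lower in dKO without being called, at −0.69 (SE 0.19, adjusted p = 0.175) in innervated and −0.57 (SE 0.19, adjusted p = 0.287) in denervated legs. Its innervated groups did not overlap. H2afz has a near-identical copy in a transcript of Tmcc1. The labels do not give which exons the deletion removes. Replicate 2 of the WT denervated legs and replicate 1 of the dKO innervated legs stood apart in the correlation of their deviations with transcript GC content, at −0.33 and −0.24, against −0.127 to 0.166 in the other 10 libraries. The submitters' notes do not give the strand setting of the counting, and 12 of the members share exon bases with a gene on the opposite strand. Among them are Srcap, Znhit1, Kat5, Morf4l1, Actl6a, Ruvbl2 and Ino80e (1253 bases), while Tfpt shares only 4 bases. Reads of such pairs may not be told apart.

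After the nerve cut most of the exchange machinery was higher in both genotypes, with subunits of INO80, of p400/TIP60 and of the set they share with SRCAP among the genes that rose, and none of the 3 SRCAP-specific genes was called higher. In dKO legs 20 of 32 members changed, 19 higher and 1 lower, where 42% of all genes tested changed (21.9% higher and 20.2% lower). In WT legs 21 of 32 changed, 19 higher and 2 lower, where 44% of all genes changed (23.1% higher and 21% lower). The median change of the members was 0.42 in dKO and 0.34 in WT, beside −0.03 and −0.003 over all genes. Of genes averaging 1 CPM or more, 50.3% were called in dKO and 52.5% in WT. The groups did not overlap for 22 of 32 members in dKO, as for 52.6% of all genes, and for 23 of 32 in WT, as for 51.5%. The members rose in 17 cases in both genotypes, out of the 19 of each genotype, and Uchl5 fell in both. The summed counts of the 32 members were 0.0984 ± 0.00257% of the library in dKO denervated legs, against 0.0713 ± 0.00173% in dKO innervated legs. In WT they were 0.1 ± 0.00268% in denervated legs, against 0.0708 ± 0.00389% in innervated legs (SD, n = 3 each). The shares of the denervated legs lay above those of the innervated legs in both genotypes, with no overlap. They are raw counts over library totals, without TMM scaling. A fall in abundant genes therefore raises them even where the members do not change. Ttn, for one, had 119378 CPM in dKO denervated legs, against 172406 CPM in dKO innervated legs. How much of the difference in shares comes from such genes was not tested.

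**Figure D1:**
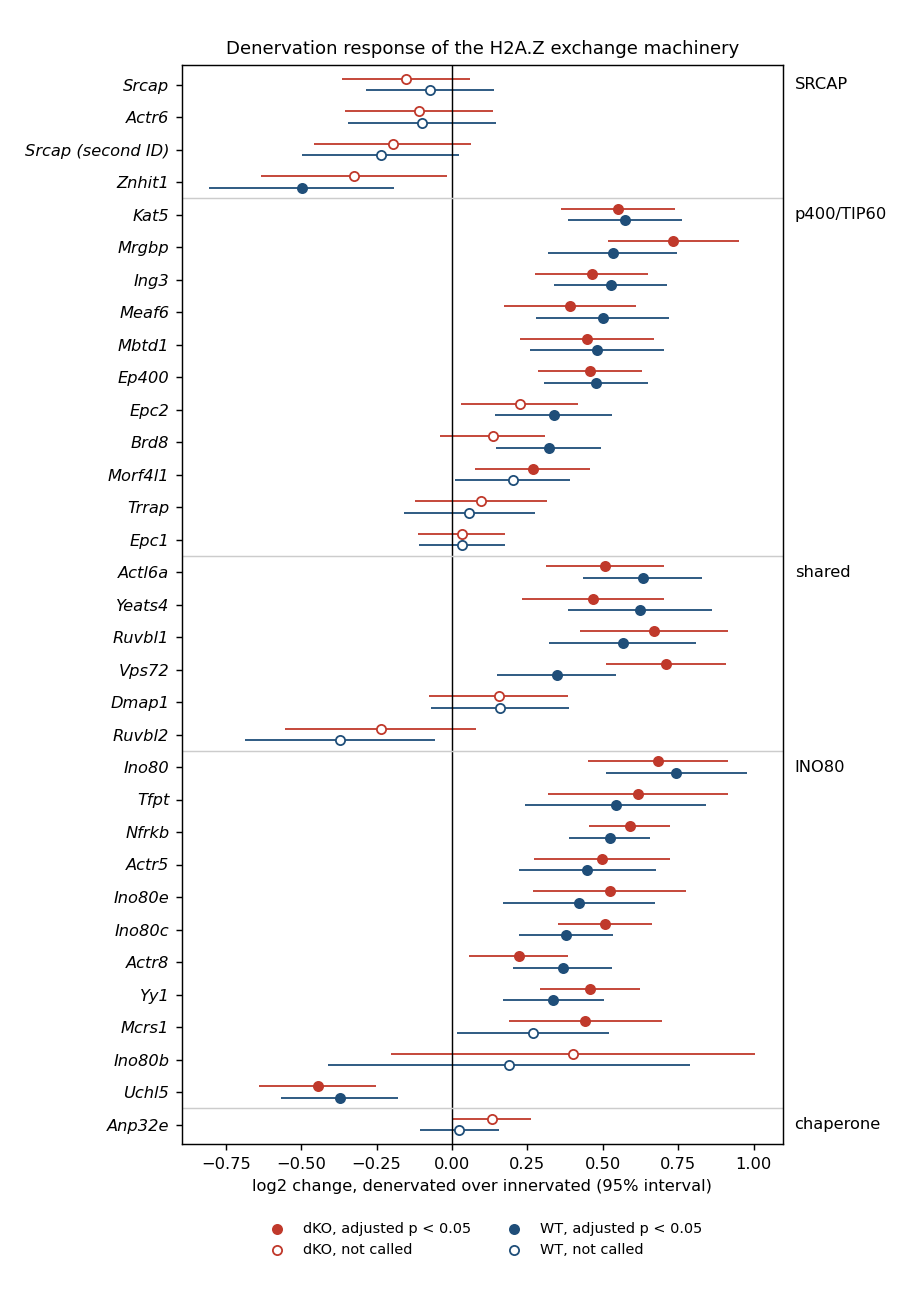
Change of each member after denervation, as the log2 ratio of denervated over innervated legs with its 95% interval, dKO in red above WT in blue, grouped by complex; filled points have an adjusted p under 0.05 and open points do not. Most subunits of p400/TIP60 and INO80 lie to the right of 0, the 4 SRCAP-specific entries lie to the left, and Uchl5 is the member called lower in both genotypes.

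The 3 ATPases parted. Ino80 (ENSMUSG00000034154, chromosome 2, 119373042 to 119477687, minus strand, GRCm38) had 79.99, 68.9 and 62.6 CPM in dKO denervated legs, against 50.4, 42.4 and 38.9 CPM in dKO innervated legs. It had 67.7, 66.7 and 75.6 CPM in WT denervated legs, against 42.5, 40.02 and 42.9 CPM in WT innervated legs. No denervated library reached down to an innervated one, and Ino80 rose by 0.68 in dKO (SE 0.11, adjusted p = 0.000217) and by 0.74 in WT (SE 0.11, adjusted p = 0.000105), the largest change of a member in WT. Ep400 (ENSMUSG00000029505, chromosome 5, 110664373 to 110770717, minus strand) had 78.7, 71.4 and 76.8 CPM in dKO denervated legs, against 54.6, 50.01 and 60.7 CPM in dKO innervated legs. It had 75.6, 74.4 and 79.98 CPM in WT denervated legs, against 52.5, 56.04 and 56.6 CPM in WT innervated legs. Again the groups did not overlap, and Ep400 rose by 0.46 in dKO (SE 0.08, adjusted p = 0.000478) and by 0.48 in WT (SE 0.08, adjusted p = 0.000321).

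Srcap (ENSMUSG00000053877, chromosome 7, 127511983 to 127561219, plus strand) had 32.4, 30.2 and 32.7 CPM in dKO denervated legs, against 34.4, 32.4 and 39.1 CPM in dKO innervated legs. It had 29.4, 34.3 and 32.7 CPM in WT denervated legs, against 30.4, 33.1 and 37.9 CPM in WT innervated legs. The groups overlapped in both genotypes, and the change was −0.15 in dKO (95% interval −0.36 to 0.06, adjusted p = 0.241) and −0.07 in WT (−0.29 to 0.14, adjusted p = 0.592). The upper ends of these intervals lie under the rises of Ino80 and Ep400. A second ID with the symbol Srcap (ENSMUSG00000090663), absent from the GENCODE M21 names, held 0.376 to 0.466 times the counts of the first, with changes of −0.20 in dKO and −0.24 in WT, not called in either. An alternative chosen after seeing the data removed each library's GC trend and had a term for each animal. There the WT change of the second ID was −0.24 with an adjusted p of 0.0453. This ID had no GC content to use, so no GC trend was taken out of its own counts. Srcap also overlaps Gm42715, a near-identical transcript on the same strand, so reads of this locus may be split.

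**Figure D2:**
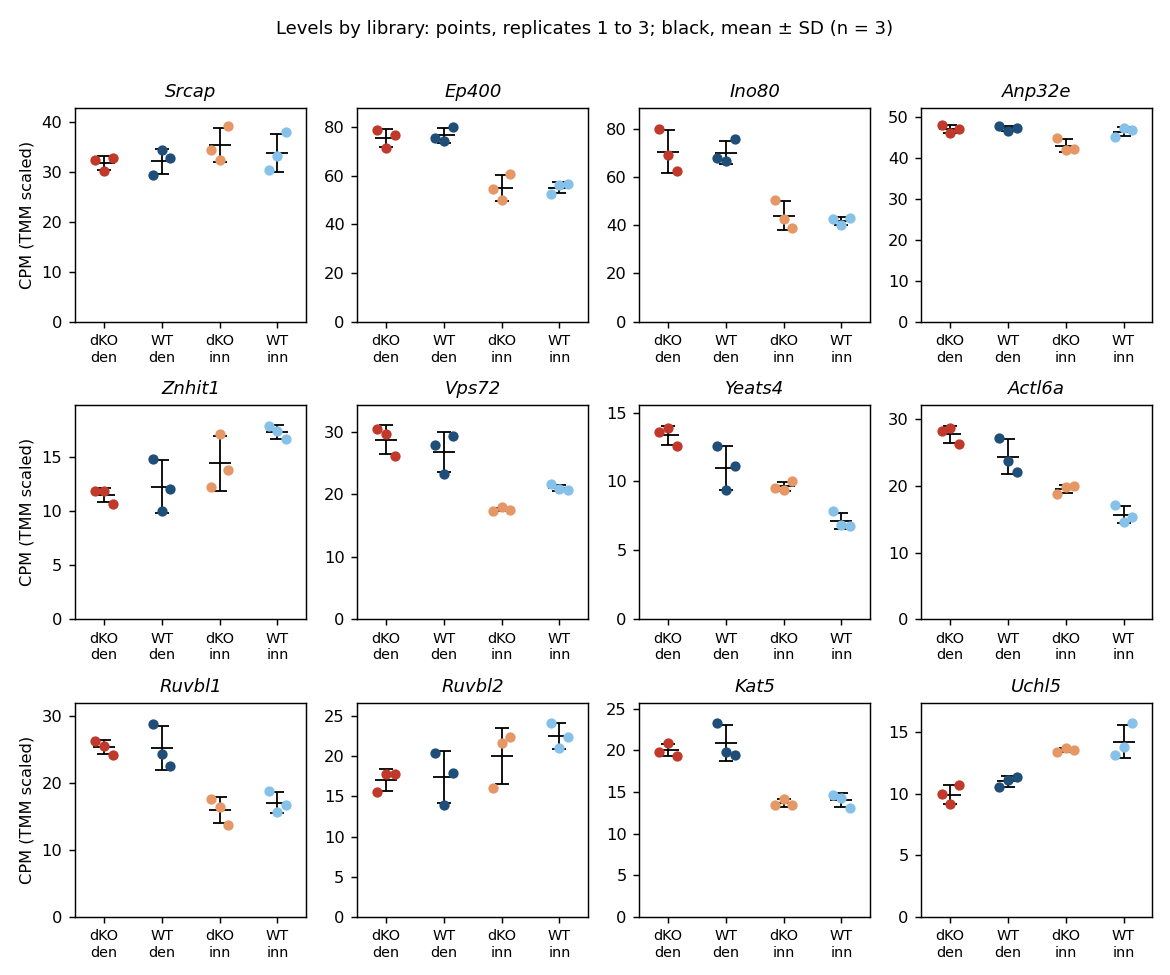
CPM of 12 members in each library (points, replicates 1 to 3 from left to right) with the mean and SD of each group (black, n = 3), for dKO denervated, WT denervated, dKO innervated and WT innervated legs. Ep400, Ino80, Ruvbl1 and Kat5 are higher in the denervated legs of both genotypes with no overlap, Srcap overlaps, and Znhit1 and Uchl5 are lower.

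The other subunits specific to SRCAP were not called higher either. Znhit1, a zinc finger protein of the module that holds the H2A.Z dimer, had 11.9, 11.9 and 10.7 CPM in dKO denervated legs, against 12.2, 17.1 and 13.8 CPM in dKO innervated legs. It had 14.8, 9.97 and 12.02 CPM in WT denervated legs, against 17.8, 17.4 and 16.6 CPM in WT innervated legs. The denervated legs were the lower ones in both genotypes without overlap, and Znhit1 fell in WT by 0.50 (SE 0.14, adjusted p = 0.0119), while the dKO value was −0.33 (SE 0.14, adjusted p = 0.0844). The fit with a term for each animal gave −0.31 in dKO with an adjusted p of 0.0492. Without replicate 2 of the WT denervated legs, which had the lowest value of all, the WT change was −0.36 with an adjusted p of 0.0572. Without that library and replicate 1 of the dKO innervated legs, the other that stood apart, the change was −0.43 in dKO (adjusted p = 0.012) and −0.37 in WT (adjusted p = 0.0274). Actr6, an actin-related protein, had changes of −0.11 in dKO and −0.10 in WT with overlapping groups, at 4.01 to 5.44 CPM over the 12 libraries. The 4 SRCAP-specific IDs belong to 3 genes and had a median of −0.17 in both genotypes. Of them 0 rose, beside 21.9% of all genes in dKO and 23.1% in WT, a share from which a count over so few genes cannot be told apart.

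Of the 10 p400/TIP60 subunits counted, 6 (60%) rose in dKO and 7 (70%) in WT, and none fell. Of all genes, 21.9% rose in dKO and 23.1% in WT. Kat5, the TIP60 acetyltransferase, had 19.8, 20.9 and 19.4 CPM in dKO denervated legs, against 13.4, 14.2 and 13.4 CPM in dKO innervated legs, and rose by 0.55 (SE 0.09, adjusted p = 0.000222). It had 23.3, 19.8 and 19.4 CPM in WT denervated legs, against 14.6, 14.3 and 13.1 CPM in WT innervated legs, and rose by 0.57 (SE 0.09, adjusted p = 0.00015). All 3 denervated libraries of each genotype lay above all innervated ones. Ing3, a PHD finger protein that reads methylated histone H3, rose by 0.46 in dKO and 0.53 in WT. Mbtd1, a reader of methylated histone H4, rose by 0.45 and 0.48, and Meaf6, a small subunit of several acetyltransferase complexes, by 0.39 and 0.50. Mrgbp, which binds the MRG proteins and was matched by ID, had 9.23, 10.6 and 10.01 CPM in dKO denervated legs, against 5.84, 6.33 and 5.73 CPM in dKO innervated legs. It rose by 0.73 in dKO (SE 0.10, adjusted p = 6.44e-05) and by 0.53 in WT (SE 0.10, adjusted p = 0.000756).

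Another 3 subunits were called in 1 genotype. Morf4l1, the chromodomain protein MRG15, had 117, 111 and 101 CPM in dKO denervated legs, against 96.95, 90.97 and 85.4 CPM in dKO innervated legs, and rose by 0.27 (adjusted p = 0.0274). In WT its change was 0.20 (adjusted p = 0.0848), and with a term for each animal it was 0.21 with an adjusted p of 0.0284. The dKO call of Morf4l1 was lost, with adjusted p of 0.0611 to 0.104, when replicate 2 or 3 of the dKO innervated legs or replicate 1 or 2 of the dKO denervated legs was left out. Brd8, a bromodomain subunit, rose in WT by 0.32 (adjusted p = 0.00561), with a dKO value of 0.14 (adjusted p = 0.199). Without the 2 libraries that stood apart, the dKO change of Brd8 was 0.21 with an adjusted p of 0.0442. Epc2, a homologue of enhancer of polycomb, rose in WT by 0.34 (adjusted p = 0.0083), with a dKO value of 0.22 (adjusted p = 0.0613) and, with a term for each animal, 0.23 and an adjusted p of 0.0122. Without the 2 libraries that stood apart, Epc2 was at 0.30 in dKO with an adjusted p of 0.0248. The interaction test between the genotypes called none of these 3. Epc1, the paralogue of Epc2, was at 28.4 to 31.7 CPM in the 12 libraries, with changes of 0.03 in dKO (95% interval −0.11 to 0.17) and 0.03 in WT (−0.11 to 0.18). Trrap, the large scaffold that the complex shares with SAGA, had changes of 0.10 in dKO (−0.12 to 0.31) and 0.06 in WT (−0.16 to 0.27).

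Of the 6 subunits shared between complexes, 4 (66.7%) rose in both genotypes, beside 21.9% of all genes in dKO and 23.1% in WT. Vps72 (YL1), which binds the H2A.Z dimer in both depositing complexes, had 30.5, 29.7 and 26.2 CPM in dKO denervated legs, against 17.4, 17.9 and 17.5 CPM in dKO innervated legs. It had 27.9, 23.2 and 29.3 CPM in WT denervated legs, against 21.7, 20.8 and 20.8 CPM in WT innervated legs. Every denervated library was higher, and Vps72 rose by 0.71 in dKO (SE 0.09, adjusted p = 4.33e-05), the largest change among the 32 matched IDs there, and by 0.35 in WT (SE 0.09, adjusted p = 0.0076). Actl6a, an actin-related protein also found in BAF complexes, rose by 0.51 in dKO (adjusted p = 0.000581) and 0.63 in WT (adjusted p = 0.000101). Yeats4 (GAS41), a reader of acylated histone H3, rose by 0.47 (adjusted p = 0.00364) and 0.62 (adjusted p = 0.0005). Dmap1 overlapped between legs, with 0.15 in dKO and 0.16 in WT, not called.

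The AAA+ ATPases Ruvbl1 and Ruvbl2, which form mixed rings in all 3 complexes, went apart. Ruvbl1 had 26.3, 25.4 and 24.1 CPM in dKO denervated legs, against 17.5, 16.4 and 13.7 CPM in dKO innervated legs. It had 28.8, 24.3 and 22.5 CPM in WT denervated legs, against 18.7, 15.7 and 16.6 CPM in WT innervated legs. The groups did not overlap, and it rose by 0.67 in dKO (SE 0.11, adjusted p = 0.000381) and 0.57 in WT (SE 0.11, adjusted p = 0.00124). Ruvbl2 had 15.5, 17.8 and 17.8 CPM in dKO denervated legs, against 16.05, 21.7 and 22.5 CPM in dKO innervated legs. It had 20.4, 13.9 and 17.9 CPM in WT denervated legs, against 24.2, 21.04 and 22.4 CPM in WT innervated legs. The dKO groups overlapped and the WT groups did not, and the change was −0.24 in dKO (SE 0.15, adjusted p = 0.22) and −0.37 in WT (SE 0.15, adjusted p = 0.0548). With a term for each animal the WT change of Ruvbl2 was −0.38 with an adjusted p of 0.00474. Without the 2 libraries that stood apart, the dKO change was −0.37 with an adjusted p of 0.0104. With each library's GC trend taken out and the animals as a block, Ruvbl2 was at −0.21 in dKO (adjusted p = 0.0131) and −0.25 in WT (adjusted p = 0.00438). Ruvbl2 shares exon bases with Gys1 and Lhb on the opposite strand, and Ruvbl1 has a near-identical copy, Gm5837.

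Among the lists of members, that of the INO80 complex had the most called, 9 of 11 higher and 1 lower in dKO and 8 of 11 higher and 1 lower in WT. It was also the largest as counted, beside 10 for p400/TIP60 without Mrgbp. These are 90.9% called in dKO and 81.8% in WT, beside 42% and 44% of all genes. Nfrkb, a large subunit of the complex, had 34.5, 33.7 and 35.98 CPM in dKO denervated legs, against 23.2, 23.4 and 22.6 CPM in dKO innervated legs. It had 34.5, 33.8 and 33.6 CPM in WT denervated legs, against 24.04, 23.02 and 23.9 CPM in WT innervated legs. Its replicates lay close together and far from the other leg, and its adjusted p was the smallest of the members, with a rise of 0.59 in dKO (SE 0.06, adjusted p = 7.31e-06) and 0.52 in WT (SE 0.06, adjusted p = 1.99e-05). The nucleosome-contacting actin-related protein Actr5 rose by 0.50 in dKO and 0.45 in WT, and Actr8 by 0.22 and 0.37. The dKO call of Actr8 (adjusted p = 0.0323) was lost without replicate 2 or 3 of the dKO innervated legs or replicate 1 of the dKO denervated legs, with adjusted p of 0.0593, 0.135 and 0.0774. Ino80c, which pairs with Actr5, rose by 0.51 and 0.38, Ino80e by 0.52 and 0.42, and Tfpt by 0.62 and 0.54. Yy1, a zinc finger transcription factor bound to the complex, rose by 0.46 in dKO (adjusted p = 0.000359) and 0.34 in WT (adjusted p = 0.00315).

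Uchl5, a deubiquitinase that works both in INO80 and on the 19S proteasome, was the member that fell in both genotypes. It had 9.95, 9.18 and 10.7 CPM in dKO denervated legs, against 13.4, 13.7 and 13.5 CPM in dKO innervated legs, and fell by 0.44 (SE 0.09, adjusted p = 0.00141). It had 10.5, 11.1 and 11.4 CPM in WT denervated legs, against 13.2, 13.8 and 15.8 CPM in WT innervated legs, and fell by 0.37 (SE 0.09, adjusted p = 0.00427). Each denervated library was under each innervated one. The 18 genes of the 19S proteasome particle in a list set beside the members, Adrm1, its receptor for UCHL5, among them, rose in 18 of 18 cases in both genotypes, with medians of 0.98 in dKO and 0.89 in WT. Of all genes, 21.9% rose in dKO and 23.1% in WT. Mcrs1 had 20.7, 23.01 and 20.5 CPM in dKO denervated legs, against 14.5, 15.8 and 16.99 CPM in dKO innervated legs, and rose by 0.44 (adjusted p = 0.00821). In WT its change was 0.27 (adjusted p = 0.0811), with a term for each animal 0.26 (adjusted p = 0.0337), and without replicate 2 of the WT denervated legs 0.40 (adjusted p = 0.00913). Mcrs1 has a near-identical copy, Gm13127.

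Ino80b had the widest spread of the members. It had 4.81, 6.70 and 4.65 CPM in dKO denervated legs, against 3.16, 5.21 and 3.86 CPM in dKO innervated legs. It had 7.24, 2.95 and 5.74 CPM in WT denervated legs, against 5.10, 3.97 and 4.84 CPM in WT innervated legs. Its lowest values, 2.95 and 3.16 CPM, were those of the WT denervated and dKO innervated libraries that stood apart in GC content, and Ino80b has the highest GC content of the members, 61.2%. Its change was 0.40 in dKO (SE 0.28, adjusted p = 0.277) and 0.19 in WT (SE 0.28, adjusted p = 0.622). After removal of each library's GC trend and with a term for each animal, an alternative chosen after seeing the data, it was 0.50 (adjusted p = 0.00246) and 0.43 (adjusted p = 0.00529).

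The chaperone Anp32e (ENSMUSG00000015749, chromosome 3, 95929246 to 95947390, plus strand) had 48.1, 46.2 and 47.2 CPM in dKO denervated legs, against 44.8, 41.96 and 42.2 CPM in dKO innervated legs. It had 47.9, 46.7 and 47.3 CPM in WT denervated legs, against 45.2, 47.3 and 46.98 CPM in WT innervated legs. All 3 dKO denervated libraries lay above the dKO innervated ones and the WT groups overlapped. The change was 0.13 in dKO (95% interval 0.003 to 0.26, adjusted p = 0.0942) and 0.02 in WT (−0.11 to 0.15, adjusted p = 0.778). DESeq2 put the dKO change of Anp32e at 0.15 with an adjusted p of 0.043.

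Levels of different genes were compared per length, on the deposited normalized counts per kb of gene length. In WT innervated legs Anp32e was the highest member at 4118 ± 89.5, followed by Morf4l1 at 3334 ± 372, Ep400 at 1768 ± 67.5, Znhit1 at 1616 ± 61.9 and Vps72 at 1548 ± 41.8 normalized counts per kb (SD, n = 3). Anp32e and Morf4l1 lay further apart than their SDs, as did Morf4l1 and Ep400, while Znhit1 and Vps72 differed by about their SDs. Srcap stood at 818 ± 88.6 and Ino80 at 576 ± 21.03 normalized counts per kb, the 15th and 20th of 32. The lowest were Actr6 at 196 ± 6.92 and Actr5 at 145 ± 10.8. How the length was defined is not given in the sources used here, and for the large genes it is short, 2.9 kb for Srcap beside 15.8 kb of annotated exon. With total exon length in its place, a choice made after seeing the data, Anp32e and Morf4l1 were again the first and the second, Ep400 became the 18th, Srcap the 25th and Ino80 the 8th, so the order among the ATPases depends on the length used. After denervation, in the deposited scale, Ep400 reached 2453 and Ino80 960 normalized counts per kb in WT, with Srcap at 774.

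Ratios between members within each library restate the changes given above for their genes. The ratio of Ino80 to Srcap, in normalized counts per kb, was 1.40, 1.30 and 1.09 in dKO denervated legs, against 0.835, 0.743 and 0.565 in dKO innervated legs. It was 1.31, 1.11 and 1.31 in WT denervated legs, against 0.794, 0.688 and 0.644 in WT innervated legs. The geometric means differed 1.78-fold in dKO and 1.76-fold in WT, with no overlap, and the exact 2-sided permutation test gave p = 0.1 in each genotype, the smallest value that 20 permutations allow. The ratio of Ep400 to Srcap was 3.11 to 3.22 in dKO denervated legs, against 2.05 to 2.11 in dKO innervated legs, and 2.88 to 3.41 in WT denervated legs, against 1.98 to 2.29 in WT innervated legs, with folds of 1.52 and 1.46 and the same exact p of 0.1. The ratio of Ruvbl1 to Ruvbl2 differed 1.87-fold in dKO and 1.93-fold in WT, again without overlap and with exact p = 0.1. The other 2 of the 5 ratios computed overlapped between legs in dKO. The ratio of Ino80 to Ep400 differed 1.17-fold in dKO (exact p = 0.3) and 1.20-fold in WT (exact p = 0.1, no overlap). The ratio of Epc2 to Epc1 differed 1.14-fold in dKO (exact p = 0.3) and 1.23-fold in WT (exact p = 0.1, no overlap). The 5 ratios were chosen after their members' values were seen, none can reach an exact p under 0.1 in this design, and the folds between legs do not depend on the length used.

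**Figure D3:**
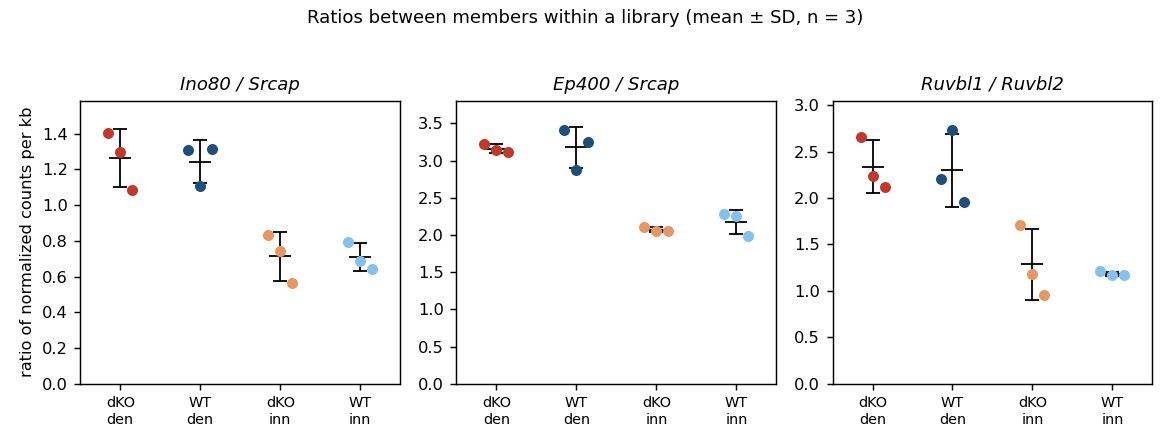
Ratios of normalized counts per kb (Ino80 to Srcap, Ep400 to Srcap and Ruvbl1 to Ruvbl2) within each library (points) with the mean and SD of each group (black, n = 3), for dKO denervated, WT denervated, dKO innervated and WT innervated legs. In the 3 ratios plotted, of 5 computed, the denervated legs lie above the innervated legs of the same genotype with no overlap.

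The dKO was then set against WT in each leg. In edgeR's fit 0 of 32 members were called between dKO and WT in innervated legs, where 0.459% of all genes were called, and 0 of 32 in denervated legs, where 0.36% were. At an unadjusted p under 0.05 the counts were 5 of 32 in innervated legs (10.5% of all genes) and 3 of 32 in denervated legs (9.78% of all genes). The log2 values of dKO over WT ran between −0.27 and 0.43 in innervated legs, with 26 of 32 within 0.2 of 0, and between −0.17 and 0.31 in denervated legs, with 30 of 32 within 0.2. DESeq2 called 1 member in innervated legs, Meaf6, and 0 in denervated legs.

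The ATPases lay close to 0. Srcap was at 0.06 in innervated legs (95% interval −0.15 to 0.28) and −0.02 in denervated legs (−0.23 to 0.20). Ep400 was at 0.003 (−0.17 to 0.17) and −0.02 (−0.19 to 0.15), and Ino80 at 0.07 (−0.16 to 0.30) and 0.01 (−0.22 to 0.24). Anp32e was at −0.11 in innervated legs (−0.24 to 0.02) and −0.004 in denervated legs (−0.13 to 0.13), and Znhit1 at −0.27 (−0.57 to 0.04) and −0.09 (−0.40 to 0.21). These intervals allow differences of about the sizes at their ends.

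The members with an unadjusted p under 0.05 were Meaf6, Yeats4, Actl6a, Vps72 and Brd8 in innervated legs and Meaf6, Yeats4 and Actr8 in denervated legs. Meaf6 had 9.09, 7.77 and 8.83 CPM in dKO innervated legs, against 5.89, 7.05 and 6.30 CPM in WT innervated legs, a value of 0.42 (SE 0.10, edgeR adjusted p = 0.117). It had 11.7, 10.96 and 11.1 CPM in dKO denervated legs, against 9.20, 9.73 and 8.25 CPM in WT denervated legs, a value of 0.31 (SE 0.10, adjusted p = 0.263). All dKO libraries lay above the WT libraries of the same leg. In the authors' deposited table Meaf6 is the 1 member with an adjusted p under 0.05 in innervated legs, with a log2 change of 0.41 and an adjusted p of 0.0212, and 0 members pass in denervated legs. DESeq2 gave Meaf6 a value of 0.42 with an adjusted p of 0.0215.

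Yeats4 had 9.53, 9.36 and 10.04 CPM in dKO innervated legs, against 7.83, 6.83 and 6.74 CPM in WT innervated legs, a value of 0.43 (SE 0.11, adjusted p = 0.14), and a value of 0.28 in denervated legs (SE 0.11, adjusted p = 0.402). The groups did not overlap in either leg. Actl6a was at 0.31 in innervated legs (SE 0.09, adjusted p = 0.217), Brd8 at 0.20 (SE 0.08, adjusted p = 0.398) and Vps72 at −0.26 (SE 0.09, adjusted p = 0.326), each without overlap. Actr8 was at −0.17 in denervated legs (SE 0.08, adjusted p = 0.483). Groups did not overlap for 7 of 32 members in innervated legs, where 17.1% of all genes did not, and for 4 of 32 in denervated legs, against 14%.

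**Figure D4:**
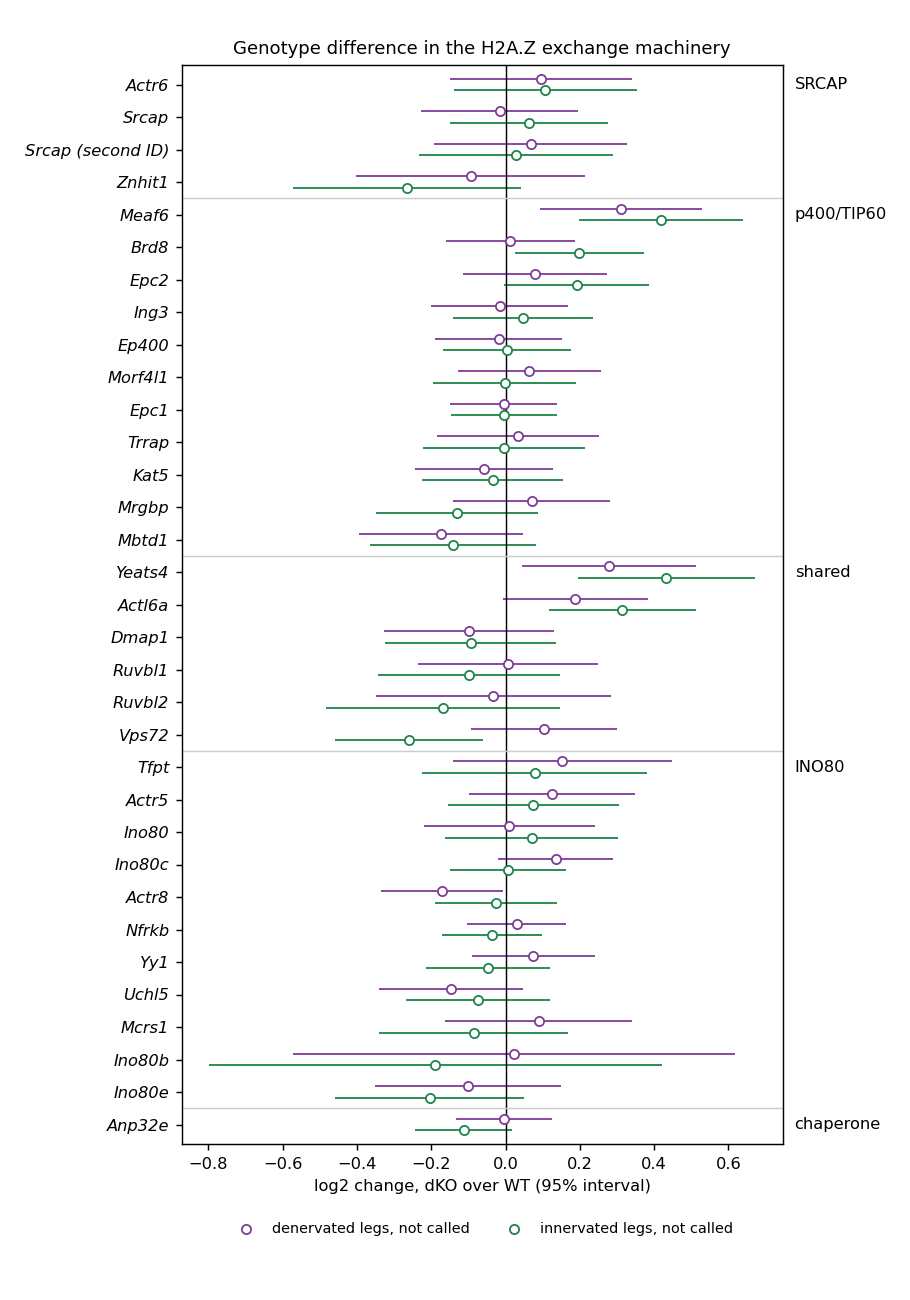
Difference of each member between genotypes, as the log2 ratio of dKO over WT with its 95% interval, in denervated legs (purple, upper) and innervated legs (green, lower), grouped by complex. No point has an adjusted p under 0.05, and Meaf6 and Yeats4 lie farthest to the right in both legs.

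The response to the nerve cut was not called as different between the genotypes for any member. The interaction test called 0 of 32 members and 0% of all genes by edgeR and 0 members by DESeq2, and at an unadjusted p under 0.05 it held 1 member, where 2.17% of all genes did. That member was Vps72, whose rise was larger in dKO than in WT by 0.36 (SE 0.13, 95% interval 0.08 to 0.64, unadjusted p = 0.0151, adjusted p = 1.0 in edgeR). Beside it stand the Vps72 levels of the innervated legs, 17.6 ± 0.287 CPM in dKO and 21.1 ± 0.512 CPM in WT, and of the denervated legs, 28.8 ± 2.28 CPM in dKO and 26.8 ± 3.18 CPM in WT (SD, n = 3). The differences were −0.06 for Ino80 (−0.39 to 0.27), −0.02 for Ep400 (−0.26 to 0.22), −0.08 for Srcap (−0.38 to 0.22), 0.17 for Znhit1 (−0.26 to 0.61) and 0.11 for Anp32e (−0.08 to 0.29).

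Genes next to the members in the pathway moved in both directions. Of 7 tested subunits and paralogues outside the list, 2 rose and 1 fell in each genotype (42.9% called). Of all genes, 42% were called in dKO and 44% in WT. Morf4l2, the paralogue of Morf4l1, rose by 0.80 in dKO and 0.84 in WT, and Cfdp1, the mammalian relative of a yeast SWR1 subunit, by 0.57 and 0.62. Anp32a, a relative of Anp32e, fell by 0.47 and 0.48. Of 6 tested genes that bind H2A.Z nucleosomes or partner such binders, 1 rose and 1 fell in each genotype (33.3% called). Brd2, a bromodomain protein, rose by 0.42 in dKO and 0.34 in WT, and Rai1 fell by 0.93 and 1.16.

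Markers of the cells of the muscle moved with denervation, and their part in the changes of the members was not tested. The summed level of 10 myofibre markers, Acta1, Ckm and Ttn among them, was 195323 to 214530 CPM in dKO denervated legs, against 278506 to 280380 CPM in dKO innervated legs. It was 200455 to 206308 CPM in WT denervated legs, against 264072 to 330488 CPM in WT innervated legs, and 5 of the 10 were called lower in dKO and 6 in WT, with none called higher. Ttn was the largest part of the sum, at 119378 CPM in dKO denervated legs, against 172406 CPM in dKO innervated legs. In WT it had 115012 CPM in denervated legs, against 176408 CPM in innervated legs. Of the 10 log2 changes, 9 were below 0 in dKO, where Actn3 was at 0.09, and 10 in WT. The 5 satellite cell markers summed to 48.0 to 51.2 CPM in dKO denervated legs, against 35.0 to 40.6 CPM in dKO innervated legs, and to 45.3 to 55.8 CPM in WT denervated legs, against 39.7 to 44.0 CPM in WT innervated legs. The 7 proliferation markers summed to 28.8 to 33.3 CPM in dKO denervated legs, against 22.04 to 22.4 CPM in dKO innervated legs, and to 29.2 to 32.2 CPM in WT denervated legs, against 18.1 to 21.4 CPM in WT innervated legs. Both sums were higher after denervation without overlap. The satellite cell sum was carried by Cdh15, which rose by 0.85 in dKO and 0.66 in WT, to 31.7 CPM in dKO denervated legs, against 17.6 CPM in dKO innervated legs. Chodl fell by 0.40 in dKO and 0.22 in WT, Myf5 rose in WT by 0.75 with a dKO value of 0.40 that was not called, and the medians of the 5 changes were −0.003 in dKO and −0.04 in WT. Of the 7 proliferation markers 4 rose in dKO and 5 in WT, and none fell.

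The 5 neutrophil markers summed to 23.6 to 31.6 CPM in dKO denervated legs, against 1.53 to 1.76 CPM in dKO innervated legs, and to 11.9 to 22.03 CPM in WT denervated legs, against 1.04 to 1.49 CPM in WT innervated legs, with Ly6g at 0 in all libraries of the denervated groups and of the WT innervated group. Nearly all of this sum was S100a8, at 26.2 CPM in dKO denervated legs, against 0.128 CPM in dKO innervated legs, and at 16.3 CPM in WT denervated legs, against 0.136 CPM in WT innervated legs. S100a8 was the 1 called of 3 tested, and S100a9 and Csf3r had 0.259 and 1.75 CPM in dKO denervated legs, against 0.158 and 1.27 CPM in dKO innervated legs. The sums of the 10 macrophage markers found in the table overlapped between legs, at 185 to 225 CPM in dKO denervated legs, against 176 to 196 CPM in dKO innervated legs, and at 174 to 197 CPM in WT denervated legs, against 158 to 182 CPM in WT innervated legs. Within that list Cd68 rose by 2.31 in dKO (adjusted p = 1.53e-06) and 2.01 in WT (adjusted p = 4.6e-06), Cd163 fell by 0.37 and 0.73, and Cd14 rose in dKO by 0.52. The summed levels of endothelial, mural, Schwann cell and fibroblast markers were lower in denervated legs without overlap in both genotypes. Members called lower numbered 4 of 7 endothelial, 3 of 4 mural and 3 of 5 Schwann cell markers in each genotype and 3 of 7 fibroblast markers in dKO and 4 in WT, while Sox10 was called higher in dKO. The 7 endothelial markers summed to 356 to 389 CPM in dKO denervated legs, against 439 to 515 CPM in dKO innervated legs, and to 362 to 435 CPM in WT denervated legs, against 489 to 564 CPM in WT innervated legs. The 4 mural markers summed to 555 to 596 CPM in dKO denervated legs, against 797 to 897 CPM in dKO innervated legs, and to 514 to 624 CPM in WT denervated legs, against 821 to 899 CPM in WT innervated legs. The 5 Schwann cell markers summed to 16.6 to 18.4 CPM in dKO denervated legs, against 36.5 to 48.1 CPM in dKO innervated legs, and to 18.8 to 20.5 CPM in WT denervated legs, against 41.7 to 45.8 CPM in WT innervated legs. The 7 fibroblast markers summed to 3035 to 3417 CPM in dKO denervated legs, against 4640 to 7890 CPM in dKO innervated legs, and to 2875 to 4984 CPM in WT denervated legs, against 5130 to 7680 CPM in WT innervated legs. Most of this sum was Col1a1, Col1a2 and Col3a1, at 2633, 2017 and 1710 CPM in WT innervated legs. Of the 7 log2 changes, 6 were below 0 in dKO and 5 in WT. Pi16 fell in WT by 1.01. Pdgfra had 61.2 CPM in dKO denervated legs, against 53.9 CPM in dKO innervated legs. In WT it had 57.5 CPM in denervated legs, against 53.6 CPM in innervated legs.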

How the data were processed

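Raw counts of reads for each gene were deposited, per the file headers, for 12 libraries of stranded, ribosomal RNA depleted total RNA, per the labels' protocols. Per the submitters' processing notes, the build was mm9 and the tools included HTSeq 0.6.1, TopHat2 2.0.14, Bowtie and bcl2fastq 2.17.1.14, listed without roles. The authors also deposited a normalized signal (counts divided by 1 factor per library) and that signal per kb of gene length, and neither method is given in the sources used here. Log2 fold changes, p-values and adjusted p-values are the authors' own, and their signs were turned because they divide the first-named group by the other. The final p-value columns carry a repeated header (dKO against WT, innervated) and were read as the denervated comparison, whose log2 column they follow.

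Counts were scaled by TMM, filtered by edgeR's filter by group (17201 of 31057 genes, 99.975% of counts) and fitted with 4 group means, leaving 8 residual degrees of freedom, in edgeR 4.0.16 (limma 3.58.1, R 4.3.3). Each contrast used the quasi-likelihood test and Benjamini-Hochberg adjustment over all tested genes at 0.05. Standard errors and 95% intervals come from the F statistic. A floor of 3 counts equals 0.0342 to 0.0539 CPM and covers counting error only. The labels name 3 biological replicates per group without the animal of each leg, so p-values measure the spread between samples. Equal replicate numbers were checked as a sign of a shared animal: deviations from group means correlated at 0.197 to 0.508 in dKO and 0.271 to 0.459 in WT between legs of the same number, against −0.389 to 0.0884 and −0.376 to 0.0817 between different numbers. The pairing comes from this check, and the alternative with a term for each animal uses it. Between genotypes the animals differ, so there the block was the replicate number, shared by dKO and WT. Other alternatives were DESeq2 1.42.0, size factors, filters, fits of 2 groups and libraries left out.

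Positions, exon overlaps, GC content and near-identical copies (BLAST 2.17.0, 98% identity over 50% of length) came from GENCODE M21 (GRCm38), a build other than mm9, and promoters from RefSeq. The MEF2 and NRF1 motif forms were settled after first counts were seen. In the denervation contrasts all members are accounted for. In the genotype and interaction contrasts the text names Srcap, Ep400, Ino80, Vps72, Znhit1, Anp32e and members with an unadjusted p under 0.05, and of other lists up to 2 called genes with the largest rise and 2 with the largest decrease in WT. Adrm1 and the members of ratios were named after values were seen. The members and lists were chosen with earlier results of these data known. The edgeR steps were tested on simulated data.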

Additional observations from a re-analysis of the deposited data

How the results depend on the processing

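No member was called between genotypes or in the interaction under the alternatives run, except that DESeq2 called 1 member (Meaf6) between genotypes in innervated legs. After denervation the members called numbered 18 to 24 in dKO and 21 to 25 in WT over the alternatives, with 18 to 22 and 21 to 22 when single libraries were left out. All genes called numbered 6115 to 8788 in dKO and 6479 to 8952 in WT over the alternatives. In the fit reported they numbered 7233 and 7576. With the replicate block, pairing the legs of an animal, 22 members were called in dKO (20 higher, 2 lower) and 24 in WT (21 higher, 3 lower), with the changed calls given beside each member and no other call of a member changed. The block also called more of all genes, 8186 in dKO and 8498 in WT. Without the 2 libraries that stood apart, 24 members were called in dKO and 22 in WT, beside 7062 and 7266 of all genes. The gains were Brd8, Ruvbl2, Znhit1 and Epc2 in dKO, given beside each gene, and Mcrs1 in WT (0.39, adjusted p = 0.00829). Calls were gained by Ruvbl2 in WT with no filter, with a minimum of 1 CPM, and without replicate 1 of the WT denervated or of the dKO innervated legs, by Morf4l1 in WT without replicate 2 of the WT innervated legs, by Znhit1 in dKO without replicate 1 of the dKO innervated legs, and by Epc2 in dKO without any one of 4 libraries (adjusted p = 0.0225 to 0.0491). The no-filter fit and the fit of 2 groups lost Actr8 in dKO. The counts of all genes called between genotypes moved by over 1.5 times in both directions: 79 in innervated legs and 62 in denervated legs in the fit reported, against 264 and 289 with DESeq2 and 240 and 252 with no filter on low counts. They were 46 and 4 with only the 2 groups compared in the fit. With single libraries left out they ran over 27 to 113 in innervated legs and 11 to 54 in denervated legs. H2afz, −0.69 between dKO and WT in innervated legs, passed with DESeq2 (adjusted p = 0.0359) and the replicate block (adjusted p = 0.0397), and with the GC trend removed as well (adjusted p = 0.0301). It also passed with no filter on low counts in innervated legs and in denervated legs (adjusted p = 0.0434 there). For dKO over WT the replicate block was the replicate number, shared by both genotypes, and it does not pair animals. Levels of members per kb, highest over lowest, WT innervated, gave a ratio of 28.5, against 19.7 on CPM and 11.9 with exon length.

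Sign changes occurred only in values that were not called. In the genotype and interaction contrasts they were followed only for the members named there, and not for the other members. Relative to WT, dKO values turned for Anp32e in denervated legs (0.0130 with RLE size factors, 0.0131 with DESeq2), for Srcap there (0.00138 with RLE, 0.00122 with DESeq2) and for Ep400 in innervated legs (−0.000826 with the replicate block, −0.0058 with no filter, −0.000494 with the 2 groups alone). With the GC trend removed and the replicate block, Anp32e and Epc1 in WT after denervation stood at −0.0439 and −0.00724. Without replicate 1 of dKO innervated and replicate 2 of WT denervated legs together, Ino80 was −0.0414 (dKO over WT, innervated) and −0.0235 (denervated), Srcap 0.0329 (denervated), and the interaction 0.0179 for Ino80 and −0.0643 for Znhit1. With single libraries left out, values that changed sign ranged over −0.0735 to 0.0676 for Ep400, −0.0416 to 0.149 for Ino80, −0.018 to 0.152 for Srcap and −0.0661 to 0.125 for the second Srcap ID (dKO over WT, innervated). In denervated legs they ranged over −0.00972 to 0.0237 for Anp32e, −0.0396 to 0.0298 for Ep400, −0.0808 to 0.104 for Ino80, −0.0584 to 0.0411 for Srcap, −0.217 to 0.0812 for Znhit1 and −0.0196 to 0.14 for the second Srcap ID. For denervation in WT the ranges were −0.0137 to 0.0657 for Epc1, −0.101 to 0.493 for Ino80b, −0.00822 to 0.126 for Trrap and −0.142 to 0.0183 for Srcap, and for the interaction −0.0863 to 0.0545 for Ep400, −0.147 to 0.0519 for Ino80, −0.168 to 0.00159 for Srcap and −0.0571 to 0.134 for the second Srcap ID. The cause of each change was not tested.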

Other observations

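Histone chaperones outside the H2A.Z machinery were also higher after denervation in part. Of 16 tested, 9 (56.2%) rose and 0 fell in each genotype, with medians of 0.29 in dKO and 0.43 in WT. Of all genes, 21.9% rose in dKO and 23.1% in WT. Npm1, a nucleolar histone chaperone, had 93.9 ± 8.23 CPM in dKO denervated legs, against 51.4 ± 5.72 CPM in dKO innervated legs, and 87.9 ± 7.93 CPM in WT denervated legs, against 43.8 ± 3.41 CPM in WT innervated legs (SD, n = 3). It rose by 0.87 (edgeR adjusted p = 1.88e-05) and 1.01 (adjusted p = 5.64e-06). Asf1b, which hands over newly made H3 and H4, rose by 1.12 in dKO and 1.35 in WT, at 0.295 to 0.816 CPM on average over the groups.

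The other families of remodellers moved in both directions. Their shares called stand beside 42% of all genes in dKO and 44% in WT. Of genes averaging 1 CPM or more, 50.3% were called in dKO and 52.5% in WT. Of 21 tested ISWI and CHD genes, 8 rose and 4 fell in dKO (57.1% called), and 8 rose and 3 fell in WT (52.4% called). Baz1a, the partner of the ISWI ATPase SMARCA5 in the ACF complex, had 37.1 ± 4.26 CPM in dKO denervated legs, against 10.8 ± 1.36 CPM in dKO innervated legs, and 32.9 ± 3.28 CPM in WT denervated legs, against 9.02 ± 0.614 CPM in WT innervated legs (SD, n = 3). It rose by 1.77 (edgeR adjusted p = 1.42e-07) and 1.87 (adjusted p = 9.88e-08), more than any member of the H2A.Z machinery. Baz1b rose by 0.50 and 0.55, the ISWI ATPase gene Smarca1 fell by 0.94 and 1.17, and Chd2 fell by 0.77 and 0.80. Of 23 tested BAF genes, 7 rose and 3 fell in dKO (43.5% called), and 9 rose and 3 fell in WT (52.2% called). Phf10, a subunit of the PBAF form, rose by 0.79 and 0.75, and Ss18 by 0.43 and 0.59. Dpf3, which reads acetylated histones, fell by 1.48 and 1.47, and the ATPase gene Smarca2 by 0.54 and 0.50. Of 5 tested RUVBL co-chaperone genes, 1 rose and 1 fell in dKO (40% called) and 1 rose in WT (20% called). Tti2 rose in both, by 0.72 and 0.55. Of these lists 0 genes were called between dKO and WT by edgeR in either leg.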
